A study of Mus musculus with 4 samples.

Results

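Markers of migrating young neurons and of dividing cells were followed in RNA of the mouse olfactory bulb. The 10 genes were taken by symbol from the gene table of the series and all 10 were found among its 15818 genes: *Dcx*, *Sox11*, *Sox4*, *Cd24a*, *Tubb2b*, *Igfbpl1*, *Dpysl3* and *Prokr2* as young-neuron genes, and *Mki67* and *Top2a* as genes of dividing cells. The series holds 4 bulb libraries, 2 labelled unedited from *Unc80* S/S mice and 2 labelled edited from *Unc80* G/G mice. UNC80 is an auxiliary subunit of the NALCN sodium leak channel, and its transcript is recoded at a serine codon by A-to-I RNA editing. Both genotypes are CRISPR/Cas9 knock-ins: *Unc80* S/S carries another serine codon there, which editing cannot recode, and *Unc80* G/G carries the glycine codon that editing would give. The study made these mice from B6D2F1 embryos and used males aged 2 to 5 months, and no wild-type library was analysed here. Each library is described as a pool of 3 mice, so a library is the average of a pool and the spread between 2 libraries is not the spread between animals.

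In the adult mouse, stem cells of the subventricular zone beside the lateral ventricle give rise to transit-amplifying cells, which divide and produce neuroblasts. Neuroblasts move in chains along the rostral migratory stream into the core of the bulb, leave the stream and become granule and periglomerular interneurons. Young neurons thus reach the bulb after most of the divisions have taken place outside it. Some neuroblasts still divide on the way, and oligodendrocyte precursors and microglia can divide in the bulb itself. *Dcx*, *Tubb2b* and *Dpysl3* act on the cytoskeleton, *Sox4* and *Sox11* are transcription factors, *Prokr2* is a receptor for the guidance cue prokineticin 2, and *Mki67* and *Top2a* are made by cells in the cell cycle.

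The promoters of *Mki67* and *Top2a* are shown because both genes belong to the class that is transcribed late in the cell cycle, and that of *Sox4* because it stands for the young-neuron genes in the reads per library. Many late cell-cycle promoters hold CCAAT boxes and a cell cycle genes homology region (CHR), searched here as TTTGAA. The letters are RefSeq's on GRCm38.p6, from 250 bases before to 50 bases after the transcript start, on the strand of the gene. *Mki67* covers chr7:135716330-135716629, *Top2a* chr11:99024140-99024439 and *Sox4* chr13:28953650-28953949, all on the minus strand. Capitals mark CCAAT and TTTGAA on either strand (ATTGG and TTCAAA on the other).
Mki67: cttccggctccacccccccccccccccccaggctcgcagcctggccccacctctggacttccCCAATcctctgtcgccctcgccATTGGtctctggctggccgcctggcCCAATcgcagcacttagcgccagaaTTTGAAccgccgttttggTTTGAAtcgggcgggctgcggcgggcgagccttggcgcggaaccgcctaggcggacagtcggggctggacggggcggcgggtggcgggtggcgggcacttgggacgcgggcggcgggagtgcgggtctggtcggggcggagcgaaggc
Top2a: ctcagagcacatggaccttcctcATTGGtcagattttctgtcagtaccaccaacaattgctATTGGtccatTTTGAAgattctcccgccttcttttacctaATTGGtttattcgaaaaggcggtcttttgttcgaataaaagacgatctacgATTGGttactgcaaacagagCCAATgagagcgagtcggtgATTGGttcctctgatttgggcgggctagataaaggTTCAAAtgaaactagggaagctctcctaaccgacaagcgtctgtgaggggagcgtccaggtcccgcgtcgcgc
Sox4: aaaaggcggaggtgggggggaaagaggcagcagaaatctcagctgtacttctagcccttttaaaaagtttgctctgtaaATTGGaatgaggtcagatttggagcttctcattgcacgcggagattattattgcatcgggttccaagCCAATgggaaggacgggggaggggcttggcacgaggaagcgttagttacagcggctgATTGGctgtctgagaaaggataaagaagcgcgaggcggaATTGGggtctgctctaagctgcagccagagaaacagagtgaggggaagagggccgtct
The *Mki67* promoter held 3 CCAAT and 2 TTTGAA matches, the latter starting 116 and 98 bases before the transcript start. The *Top2a* promoter held 6 CCAAT and 2 TTTGAA matches, the latter 179 and 23 bases before the start. The *Sox4* promoter held 4 CCAAT matches and no TTTGAA. It held 1 match of the similar letters TTTAAA, which are not marked above and which 13.2% of promoters held. Of 32851 promoters of this length, 37.4% held at least 1 CCAAT, 17.9% at least 1 TTTGAA, 2.31% at least 2 TTTGAA and 6.95% both motifs. Promoters of 6 of the 10 genes were matched, and among the others the *Sox11* promoter held 1 match of each motif, both *Dcx* promoters held 1 CCAAT and no TTTGAA, and the *Prokr2* promoter held neither. Both motifs were found in the promoters of 25 of 46 G2 and mitosis genes (54.3%), of 4 of 32 S-phase genes (12.5%) and of 2155 of 27025 genes overall (7.97%). These matches describe letters only, and binding was not measured.

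The levels rest on an estimated 24738078 to 26479648 counted reads per library, out of 35465913 to 38051810 sequenced. The counted reads were inferred from the steps between the means and are not values given by the authors. The deposited table holds a pair of values a gene, the authors' means for S/S and G/G in CPM (reads scaled to a fixed number of counted reads), with no SD and no value per library. For 2218 genes (14.02%) the means could be split into whole reads of either library, and 4 of the 10 genes were among them: *Sox11*, *Sox4*, *Mki67* and *Top2a*. The split libraries carry no replicate number and are called here A and B for S/S (26479648 and 25238203 counted reads) and C and D for G/G (25345718 and 24738078). All intervals are 95% intervals of counting error, which leave out the differences between pools. *Unc80* itself had means of 660.9 CPM (S/S) and 633.1 CPM (G/G), which do not tell the codon and so do not check the genotype.

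Per length of merged exons, the young-neuron genes stood far above the dividing-cell genes. *Tubb2b*, a beta-tubulin, had 69.4 CPM per kb over both genotypes. *Dcx*, the microtubule-associated protein doublecortin, had 42.7 CPM per kb. *Sox4* had 29.6, *Dpysl3*, a collapsin response mediator protein, 22.3, and *Cd24a*, a small glycoprotein of the cell surface, 19.0 CPM per kb. *Sox11* followed at 5.44, *Igfbpl1*, a secreted protein of the IGF-binding protein group, at 4.36 and *Prokr2* at 3.43 CPM per kb. *Mki67*, which codes for the antigen Ki-67, had 0.256 and *Top2a*, the DNA topoisomerase that untangles chromosomes before division, 0.188 CPM per kb. *Tubb2b* and *Dpysl3* are made by mature neurons as well, so in bulk RNA these levels are not those of neuroblasts alone. The median of the 8 young-neuron genes was 93.2 times that of the 2 dividing-cell genes. Neighbours in this order did not overlap in their counting intervals. With the length of the longest transcript in place of merged exons, however, *Cd24a* passed *Dpysl3* (27.04 and 26.95 CPM per kb), *Prokr2* passed *Sox11* and *Igfbpl1*, and *Top2a* passed *Mki67* (0.324 and 0.256 CPM per kb), so the order within these groups was not settled.

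**Figure D1:**
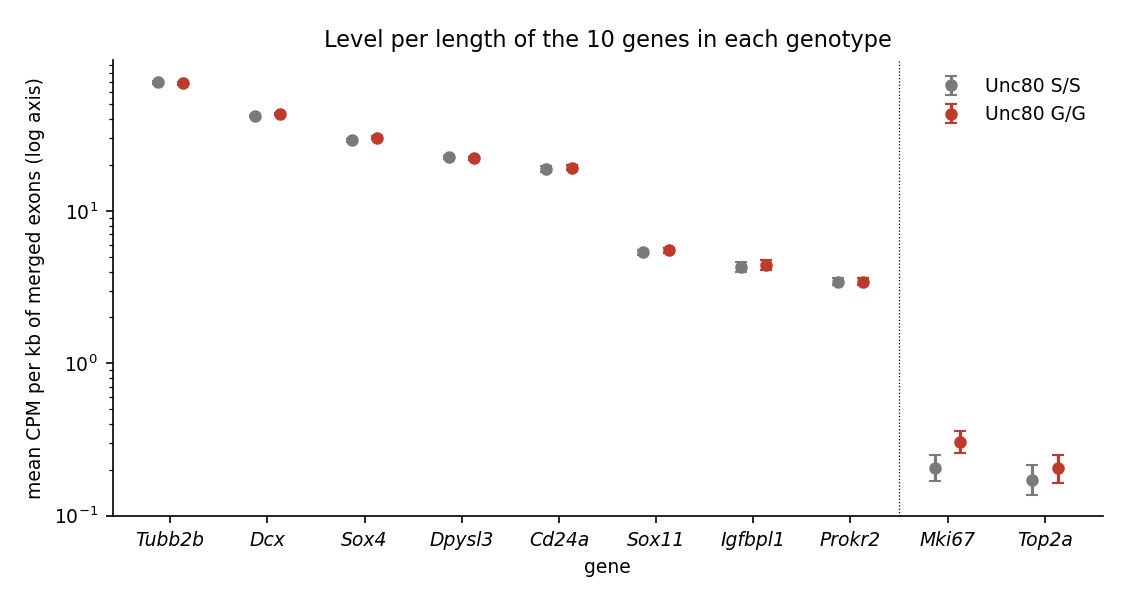
Mean CPM per kb of merged exons (log axis) of the 10 genes in S/S (grey) and G/G (red), with 95% counting intervals as bars. The 8 genes left of the dotted line lie between 3.42 and 70.0 CPM per kb, and *Mki67* and *Top2a* between 0.172 and 0.306.

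In the GENCODE M21 annotation of GRCm38, all 10 are protein-coding genes. *Dcx* lies on X:143855842-143933311, *Sox11* on 12:27334264-27342574, *Sox4* on 13:28948919-28953713, *Tubb2b* on 13:34126748-34130466, *Igfbpl1* on 4:45809468-45826923, *Dpysl3* on 18:43320984-43438286, *Prokr2* on 2:132337733-132385447, *Mki67* on 7:135689784-135716361 and *Top2a* on 11:98992943-99024189, all on the minus strand. *Cd24a* lies on the plus strand at 10:43578284-43584265. Of the 75-base windows of the *Tubb2b* transcripts, 30.2% also occurred in *Tubb2a* or its pseudogene *Tubb2a-ps2*, so the *Tubb2b* reads were uncertain. In *Sox4*, 54.6% of the exon bases were overlapped by the antisense gene *Gm26735*, and the sources disagree on a stranded kit, so reads of that pair cannot be told apart. In *Cd24a* 1.098% of the windows were shared with *Gm6212*, and the other 7 had at most 0.526% of windows shared and at most 1.35% of exon bases overlapped.

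The young-neuron genes were close to equal in the 2 genotypes. None of the 8 reached a ratio of 1.1-fold in either direction, and their log2 ratios of G/G over S/S ran from -0.03 (*Dpysl3*) to 0.05 (*Sox4*) with a median of 0.03. Of all 15818 genes, 9.57% were at least 1.1-fold higher and 8.49% at least 1.1-fold lower in G/G, and the median log2 ratio was -0.01. Among the genes of at least 5 CPM, to which all 8 belong, 9.15% were at least 1.1-fold apart. A count of 0 of 8 lay near that background.

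The authors' mean of *Dcx* was 531.5 CPM in S/S and 548.0 CPM in G/G, a log2 ratio of 0.04 (0.02 to 0.07). This interval left out 0, but it covers counting alone, and pools of the same genotype varied beyond counting error. *Sox11* had 44.5 and 45.9 CPM in the same order (0.04, -0.04 to 0.13), and *Sox4* 139.1 and 144.4 CPM (0.05, 0.01 to 0.10). *Cd24a* had 48.6 and 49.6 CPM (0.03, -0.05 to 0.11). *Igfbpl1*, which had the lowest means of the group in CPM (13.96 and 14.35), had the widest interval (0.04, -0.11 to 0.19). These 5 genes had the higher mean in G/G. The other 3 had the lower one: *Tubb2b* with 160.5 and 157.8 CPM (-0.02, -0.07 to 0.02), *Dpysl3* with 149.1 and 146.2 CPM (-0.03, -0.07 to 0.02) and *Prokr2* with 27.2 and 27.1 CPM (-0.01, -0.11 to 0.10). For the 6 young-neuron genes without reads per library no test on libraries was made. In bulk RNA, fewer cells of a type and less RNA per cell cannot be told apart.

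Both dividing-cell genes had the higher mean in G/G. *Mki67* had 2.08 CPM in S/S and 3.08 CPM in G/G, a ratio of 1.48-fold (1.15 to 1.92). *Top2a* had 1.55 and 1.84 CPM, a ratio of 1.19-fold (0.870 to 1.62). Both lie among the 3310 genes under 5 CPM, where ratios scatter more: 28.2% of those genes were at least 1.1-fold higher and 23.6% at least 1.1-fold lower in G/G. Of the same genes 1.57% had a ratio at least as high as *Mki67* and 14.98% one at least as high as *Top2a*. Only 8 genes of the whole table had a log2 ratio within 0.01 of that of *Mki67*, and 95 within 0.01 of that of *Top2a*. For each young-neuron gene the number was 988 to 1692, so there the ratio does not single out genes of like pattern. With 2 means a gene a pattern is 1 ratio, and no genes of like pattern were named.

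**Figure D2:**
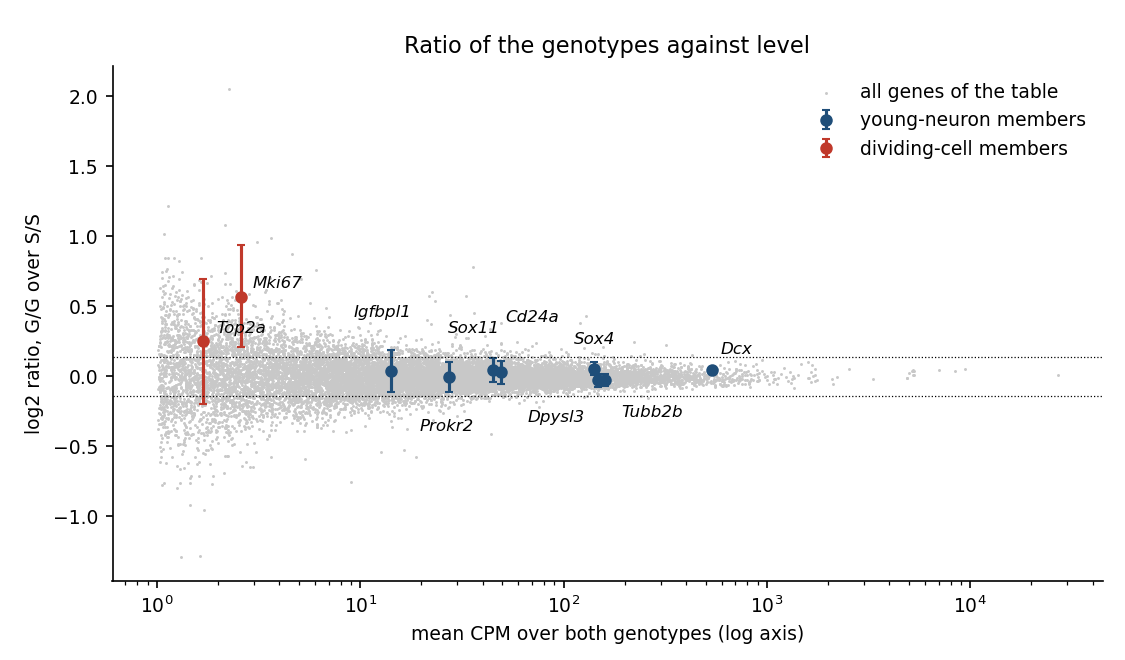
Log2 ratio of G/G over S/S against mean CPM over both genotypes (log axis) for all genes (grey), the 8 young-neuron genes (blue) and the 2 dividing-cell genes (red), with 95% counting intervals as bars and dotted lines at 1.1-fold. The blue points lie between the lines at -0.03 to 0.05, and *Mki67* (0.57) and *Top2a* (0.25) lie above them in the range of low levels where the grey points spread widest.

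*Mki67* was counted in 48 reads in library A and 59 in library B of S/S, and in 68 reads in library C and 86 in library D of G/G. In CPM libraries A to D stood at 1.81, 2.34, 2.68 and 3.48, or 2.08 ± 0.371 against 3.08 ± 0.561 CPM (SD, n = 2 libraries). Both G/G libraries therefore lay above both S/S libraries, as did 17.7% of the 2218 split genes, while 14.8% lay below. The exact permutation test (two-sided) gave p = 0.333, the smallest value that 2 against 2 allows. In edgeR's quasi-likelihood test over the 2218 genes, *Mki67* had a log2 ratio of 0.57 (SE 0.212) and a Benjamini-Hochberg adjusted p = 0.874. It was among the 5.23% of genes with an unadjusted p under 0.05 but did not pass the adjusted threshold of 0.05, which 0.0902% (2 genes) passed. The log2 ratio was 0.37 without library D (edgeR adjusted p = 0.873) and 0.40 without library A (adjusted p = 0.988), and in neither case was the unadjusted p under 0.05.

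*Top2a* was counted in 41 and 39 reads in libraries A and B of S/S, and in 39 and 53 reads in libraries C and D of G/G. The CPM values were 1.55 and 1.55 (S/S) and 1.54 and 2.14 (G/G). Library D, in which *Mki67* was also highest, stood alone above the other 3, and the groups overlapped (exact permutation test, two-sided, p = 1). In edgeR the log2 ratio was 0.25 (SE 0.242, adjusted p = 0.989), and without library D it was -0.01 (adjusted p = 0.999), so the direction of *Top2a* rested on 1 library.

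*Sox4* was counted in 3757 and 3441 reads in libraries A and B, and in 3722 and 3514 reads in libraries C and D. In CPM the higher S/S library (141.88) and the lower G/G library (142.05) all but met, though the groups did not overlap (exact permutation test, two-sided, p = 0.333). The log2 ratio was 0.05 (SE 0.0439, edgeR adjusted p = 0.988). *Sox11* was counted in 1123 and 1176 reads in libraries A and B and in 1145 and 1151 reads in C and D. Its groups overlapped (exact permutation p = 1), its log2 ratio was 0.04 (SE 0.0620, edgeR adjusted p = 0.990), and without library A it was -0.02. None of the 4 genes passed an adjusted p of 0.05.

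**Figure D3:**
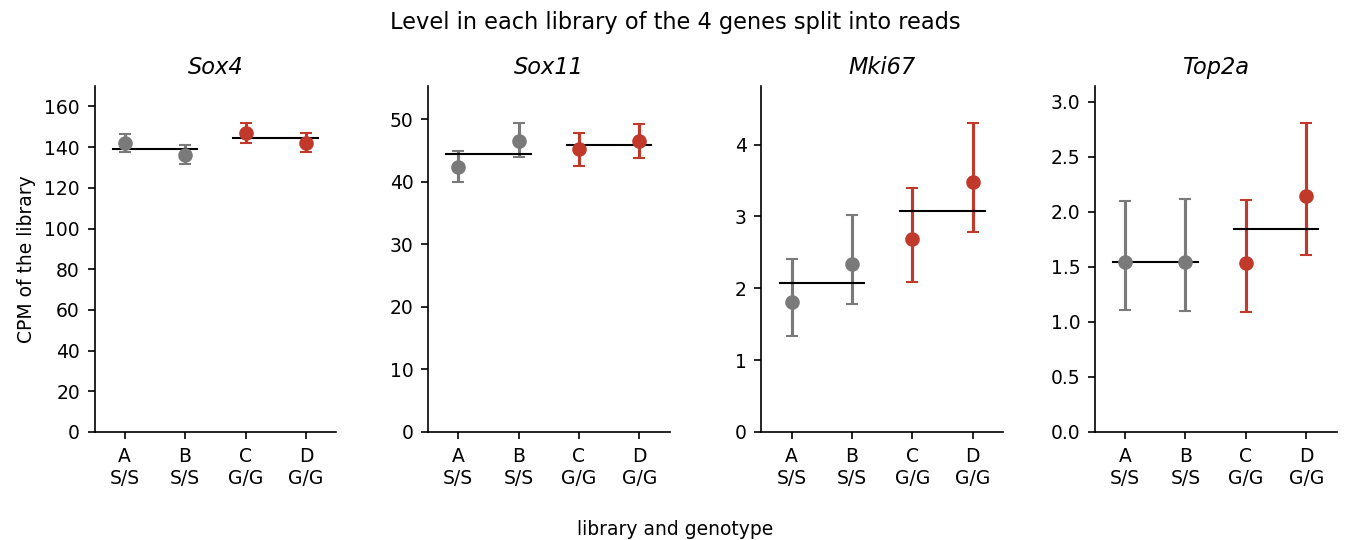
CPM in each library (points, with 95% counting intervals) of the 4 genes split into reads, for libraries A and B of S/S (grey) and C and D of G/G (red), with a line at each genotype's mean. The *Mki67* libraries read 1.81, 2.34, 2.68 and 3.48 CPM from left to right, while in *Top2a* only the last library (2.14 CPM) stands above the others.

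Set side by side, the median log2 ratio was 0.03 for the 8 young-neuron genes and 0.41 for the 2 dividing-cell genes, a difference of 0.38. Summed over the genes, the young-neuron group had 1114 CPM in S/S and 1133 CPM in G/G, and the dividing-cell group 3.62 and 4.92 CPM. The young-neuron sum was 307.7 times the dividing-cell sum in S/S and 230.3 times in G/G. Within single libraries, reads of *Mki67* and *Top2a* made up 1.79% (exact binomial 1.44 to 2.20%) and 2.08% (1.69 to 2.53%) of their sum with *Sox4* and *Sox11* in libraries A and B of S/S. The shares were 2.15% (1.77 to 2.59%) and 2.89% (2.44 to 3.41%) in libraries C and D of G/G. The intervals of A and D were apart, and those of all other pairs overlapped. On these split genes the difference of the medians was 0.36 with all 4 libraries and 0.13 without library D. With other genes of division in place of the pair the difference over all means was -0.04 with the S-phase genes and -0.03 with the G2 and mitosis genes. Of these, 23 of 35 S-phase and 14 of 28 G2 and mitosis genes stood at 5 CPM and above, where reads need not come from dividing cells alone. With only those under 5 CPM, the level of *Mki67* and *Top2a*, it was -0.03 and 0.07. *Mki67* and *Top2a* are 2 genes with few reads, and no test was made on a score over them.

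Other genes of the cell cycle did not share one direction. Of 44 S-phase genes 35 were measured, with a median log2 ratio of -0.01. Of these 3 were at least 1.1-fold higher and 2 at least 1.1-fold lower, against 9.57% and 8.49% of all genes. *Ubr7*, the S-phase gene of highest CPM, had 38.42 and 37.95 CPM in S/S and G/G, and *Pcna*, the sliding clamp of DNA replication, 26.99 and 26.1 CPM. At 5 CPM and above the ratios reached from -0.12 (*Mcm6*, a subunit of the replicative helicase) to 0.18 (*Atad2*, a bromodomain ATPase). Of 53 G2 and mitosis genes 28 were measured, with a median of 0.005, and 6 were at least 1.1-fold higher and 4 at least 1.1-fold lower. All 10 of these lie under 5 CPM, where 14 were measured with a median of 0.11, 9 of them above 0 and 5 below. Of all 3310 genes under 5 CPM, 1705 were above 0 and 1605 below, with a median of 0.009. Of the same genes, 28.2% were at least 1.1-fold higher and 23.6% at least 1.1-fold lower. Among the G2 and mitosis genes the highest ratio was that of *Ect2*, which is needed for cytokinesis (1.203 and 1.676 CPM, log2 ratio 0.48). *Cenpa*, the histone of centromeres (0.32), *Cenpe*, a kinetochore motor (0.30), and *Cenpf*, a kinetochore protein (0.29), came next. The lowest were those of *Kif20b*, a kinesin of cytokinesis (1.65 and 1.22 CPM, -0.44), *Cks1b*, a partner of cyclin-dependent kinases (-0.27), and *Ccna2*, cyclin A2 (-0.22). These low genes were named after their values were seen. No counting intervals were formed for their ratios, so their order was not settled. At 5 CPM and above none of 14 reached 1.1-fold, from *Rangap1* (-0.06) to *Ncapd2* (0.07), and most of those, such as *Cbx5* with 266.6 and 268.4 CPM, are also made by cells that do not divide. The other 25 genes, among them *Cdk1*, *Ccnb1*, *Plk1* and *Birc5*, were not analysed here, since the lowest mean in the table was 1.01 CPM and they had no row.

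Reads per library were at hand for 3 of the G2 and mitosis genes and 2 of the S-phase genes. *Cenpf* was counted in 35 and 31 reads in libraries A and B and in 41 and 37 in C and D (log2 ratio 0.29, edgeR adjusted p = 0.989). *Kif11*, a kinesin of the spindle, was counted in 46 and 49 reads in A and B and in 37 and 45 in C and D (-0.17, edgeR adjusted p = 0.990). *Psrc1* was counted in 28 and 33 reads in A and B and in 36 and 27 in C and D (0.09, edgeR adjusted p = 0.990). In *Cenpf* both G/G libraries lay above both S/S libraries in CPM, as in 17.7% of the split genes. *Kif11* lay lower in G/G by mean, but in *Kif11* and *Psrc1* the groups overlapped. None of the 3 passed the threshold. The 2 S-phase genes, *Ubr7* and *Mcm4*, a subunit of the replicative helicase, summed to 52.6 and 52.1 CPM in A and B and to 51.4 and 50.8 CPM in C and D (0.977-fold, 0.925 to 1.03). Summed with *Mki67*, *Top2a* and *Psrc1*, *Cenpf* and *Kif11* had 7.48, 8.36, 8.72 and 10.02 CPM in libraries A to D (1.18-fold, 1.03 to 1.36), and without *Mki67* 5.66, 6.02, 6.04 and 6.55 CPM (1.08-fold, 0.917 to 1.27). Without library D these ratios were 1.101- and 1.03-fold, and that of *Mki67* and *Top2a* alone went from 1.36- to 1.17-fold. The sums were formed after the values were seen, and only genes that could be split entered them.

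**Figure D4:**
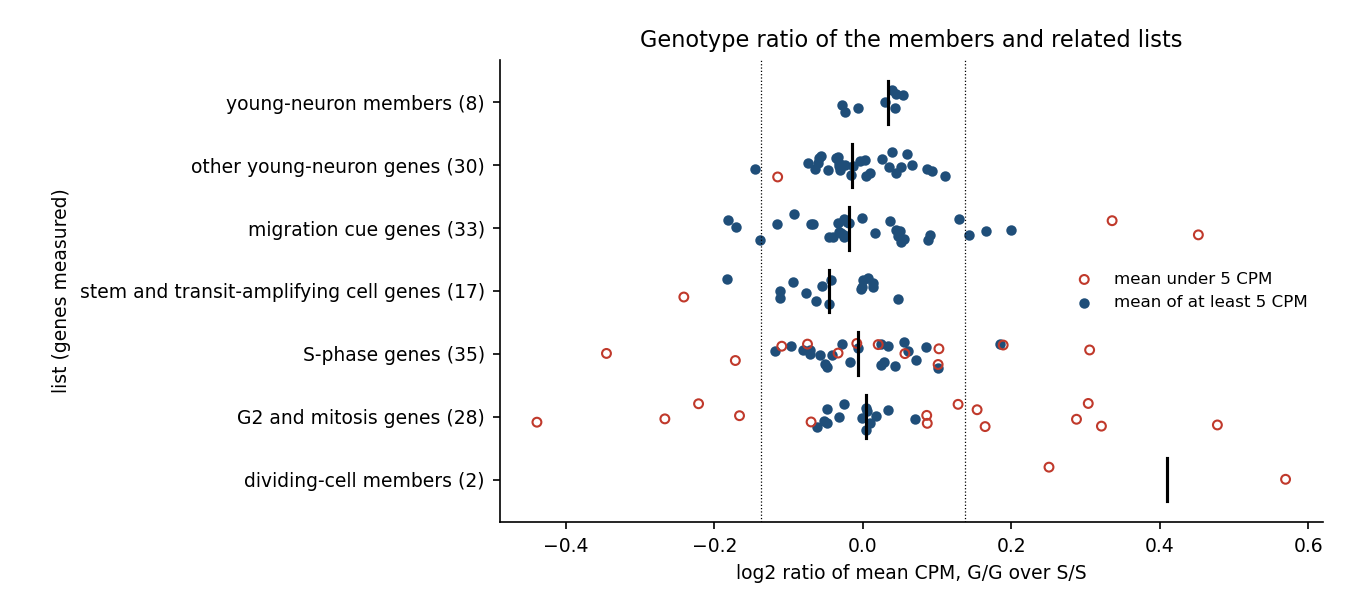
Log2 ratio of mean CPM, G/G over S/S, for each measured gene of 7 lists (filled, mean of at least 5 CPM; open, under 5 CPM), with the list median as a bar and dotted lines at 1.1-fold. The medians of all lists but the dividing-cell pair (0.41) lie between -0.05 and 0.03, and most points past the lines are open ones.

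Other genes of the young neuron also had means close to each other in S/S and G/G. All 30 listed were measured, with a median log2 ratio of -0.01 and a summed level of 5294 CPM in S/S and 5282 CPM in G/G. The highest in CPM were *Dclk1* (1277 and 1249), *Pafah1b1* (548.5 and 549.8) and *Ncam1* (355.9 and 348.2). In bulk RNA such genes can also come from mature neurons, so the list does not measure young neurons alone. None was at least 1.1-fold higher and 1 at least 1.1-fold lower, against 9.57% and 8.49% of all genes. The lower one was *Dlx6* (28.05 and 25.37 CPM, -0.14), a homeobox factor of interneurons. The antisense transcript of its locus, *Dlx6os1*, had the highest ratio (0.11), and reads of that pair may be mixed where strand was not used. Among those with reads per library, *Sp9*, a zinc finger factor of new interneurons, had 959 and 1081 reads in libraries A and B and 1077 and 1034 in C and D. *Marcksl1*, a regulator of actin, had 3774 and 3584 against 3295 and 3532 reads. *St8sia2*, an enzyme that adds the polysialic acid of migrating cells to NCAM, had 169 and 167 against 140 and 169 reads, and *Draxin*, a guidance protein, 73 and 81 against 70 and 68. The groups overlapped in all 4 of these genes, with edgeR adjusted p from 0.988 to 0.990.

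Relatives of the young-neuron genes mostly lay within 1.1-fold. In the doublecortin family, *Dclk1* had 1277 and 1249 CPM in S/S and G/G and *Dclk2* 304.3 and 317.3 CPM. *Dclk3*, a kinase of the same family, had 7.00 and 8.10 CPM, with 182 and 180 reads in libraries A and B and 213 and 193 in C and D (log2 ratio 0.21, edgeR adjusted p = 0.983). *Sox12*, the third SoxC factor, had 41.8 and 41.4 CPM. Of the tubulin genes, *Tubb2a* (512.4 and 508.9 CPM), which shares reads with *Tubb2b*, *Tubb3* (341.1 and 342.0), *Tubb4a* (397.3 and 383.6), *Tubb4b* (147.8 and 142.9) and *Tubb5* (296.3 and 292.5) stayed within 1.1-fold. *Tubb6* had 15.8 and 14.3 CPM, with 435 and 382 reads in libraries A and B and 383 and 334 in C and D (-0.14, edgeR adjusted p = 0.983).

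In the collapsin response mediator family all 5 genes had the lower mean in G/G, as had 8356 of 15816 genes overall. The counting intervals of *Crmp1*, *Dpysl3* and *Dpysl4* spanned 0. *Dpysl2*, which binds tubulin in growing axons, was counted in 3444 and 3382 reads in libraries A and B and in 2908 and 3050 reads in C and D. Both G/G libraries lay below both S/S libraries in CPM, with means of 132.0 and 119.0 CPM and a log2 ratio of -0.15 (SE 0.0471). The edgeR adjusted p = 0.818 did not pass the threshold. The other members were *Crmp1* (241.6 and 236.1 CPM, -0.03), *Dpysl3* (-0.03), *Dpysl4* (55.7 and 55.6 CPM, -0.002) and *Dpysl5* (100.1 and 96.1 CPM, -0.06), none of them 1.1-fold apart.

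The ligand of *Prokr2* is made in the bulb, where it draws neuroblasts out of the stream. *Prok2* had 2.61 CPM in S/S and 3.29 CPM in G/G (log2 ratio 0.34, -0.001 to 0.67), from about 135 and 165 reads, and could not be split into libraries. *Prok1* and *Prokr1* were not analysed here. Among 33 measured genes of migration cues the median was -0.02, and 5 were at least 1.1-fold higher and 3 at least 1.1-fold lower, against 9.57% and 8.49% of all genes. At 5 CPM and above the highest ratio was that of *Nrg3* (14.03 and 16.11 CPM, 0.20), a ligand of the receptor ERBB4, and *Erbb4* itself had 129.4 and 145.3 CPM (0.17). The lowest was *Cxcr4*, the receptor of CXCL12 (12.6 and 11.1 CPM, -0.18), and *Ntrk2*, the receptor of BDNF and the gene of highest CPM in the list, had 786.9 and 773.4 CPM. *Gdnf*, a chemoattractant growth factor, was counted in 34 and 37 reads in libraries A and B and in 39 and 55 in C and D (0.45, edgeR adjusted p = 0.983). Its highest value lay in library D. The slits, which repel neuroblasts, and their robo receptors had ratios from -0.04 (*Robo2*) to 0.13 (*Slit2*).

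The IGF-binding protein family had a median of 0.001 over 7 genes, *Igfbpl1* among them, with none 1.1-fold apart. *Igfbp5* had 382.5 and 361.6 CPM (-0.08), *Igfbp2* 57.3 and 55.8, *Igfbp4* 44.3 and 44.5, *Igfbp7* 13.4 and 13.6, *Igfbp3* 12.8 and 12.6 and *Igfbp6* 11.2 and 11.2 CPM. Of the DNA topoisomerases, *Top2b*, the main form in cells that no longer divide, had 189.4 and 187.5 CPM, and per length its 12.9 CPM per kb stood far above the 0.188 of *Top2a*. *Top1* had 140.8 and 141.9, *Top3b* 37.99 and 35.53 and *Top3a* 6.34 and 6.27 CPM. *Top1mt*, the mitochondrial form, had 6.40 and 7.45 CPM (0.22) and was with *Top2a* the only one 1.1-fold apart.

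Genes of the cells that come before neuroblasts, and of other cells that can divide in the bulb, were compared for their place beside *Mki67*. Of 18 stem and transit-amplifying cell genes 17 were measured, with a median of -0.05. None was at least 1.1-fold higher and 2 at least 1.1-fold lower, against 9.57% and 8.49% of all genes. *Id3*, an inhibitor of bHLH factors, had 26.7 and 23.5 CPM (-0.18), *Egfr* 23.9 and 24.7 CPM (0.05), and *Fabp7*, the highest in CPM, 348.8 and 352.0 CPM. In bulk RNA such genes can also come from glia, so the list does not measure stem and transit-amplifying cells alone. All 12 oligodendrocyte precursor genes were measured, with a median of 0.06. Of these 2 were at least 1.1-fold higher, *Enpp6* (8.94 and 10.1 CPM, 0.18) and *Olig1*, against 9.57% of all genes. *Olig1* was counted in 1426 and 1352 reads in libraries A and B and in 1578 and 1405 in C and D (0.15, edgeR adjusted p = 0.874). In CPM, *Olig1* and *Gpr17* were highest in library C, and *Olig2* and *C1ql1* in library B. *Pdgfra* had 45.1 and 48.6 CPM, *Cspg4* 15.5 and 14.3 and *Lhfpl3* 111.6 and 107.9 CPM, and the summed level of the list was 414.0 and 423.0 CPM. The 8 microglia genes had summed levels of 246.3 and 246.2 CPM and a median of 0.05, ranging at 5 CPM and above from *Csf1r* (-0.07) to *C1qa* (0.09). The part of any of these cells in the *Mki67* values was not tested.

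The neurons that neuroblasts become, and the tissue around them, were measured for comparison. The 16 mature bulb interneuron genes had a median of 0.01 and summed levels of 5224 and 5231 CPM, with 1618 and 1606 CPM for *Gad1*, which makes GABA. They ranged at 5 CPM and above from *Calb1* (-0.15) to *Slc32a1* (0.06). The 12 mature neuron genes, of which *Syt1* had the highest CPM (1752 and 1714), had a median of 0.01 and ranged from *Nefh* (-0.11) to *Rbfox3* (0.06). The 13 measured cell death genes had a median of 0.01 and ranged from *Casp9* (-0.10) to *Bbc3*, an activator of apoptosis (5.45 and 6.01 CPM, 0.14), and *Xiap* was the highest in CPM (187.0 and 187.5). The median was 0.03 for 8 astrocyte genes, from *Gjb6* (-0.04) to *Slc1a2* (0.09, and the highest in CPM with 1426 and 1518). It was -0.07 for 8 oligodendrocyte genes, from *Opalin* (-0.35) to *Mobp* (0.05), with *Mbp* the highest in CPM (1069 and 1090). It was 0.03 for 8 endothelial genes, from *Cdh5* (-0.09) to *Cldn5* (0.12), with *Flt1* the highest in CPM (56.1 and 59.1). For 6 measured mitral and tufted cell genes it was 0.01, from *Cdhr1* (-0.07, and the highest in CPM with 566.5 and 539.9) to *Tbr1* (0.15). The 6 measured olfactory sensory neuron genes, whose axons enter the bulb, had summed levels of 254.1 and 273.2 CPM and a median of 0.08, and at 5 CPM and above ranged from *Adcy3* (0.02) to *Gng13* (0.20), with *Omp* the highest in CPM (99.6 and 110.2). The 7 measured genes of frontal cortex and anterior olfactory nucleus had a median of -0.05 and sums of 133.0 and 129.2 CPM, and at 5 CPM and above ranged from *Rorb* (-0.09) to *Cux2* (-0.04, and the highest in CPM with 84.4 and 82.1). The 5 measured ependymal and choroid plexus genes, found where the ventricle lies, had a median of 0.12, and 1 of them, *Foxj1* (6.79 and 7.39 CPM, 0.12), reached 5 CPM. In that last list *Ttr*, transthyretin of the choroid plexus, was counted in 34 and 12 reads in libraries A and B and in 117 and 66 in C and D (2.03, edgeR adjusted p = 0.0147). It did not pass the adjusted threshold in edgeR without library B (adjusted p = 0.354), C (0.661) or D (0.102), nor in DESeq2 (0.998). The other choroid plexus genes of the list had lower ratios. *Kl* had 2.74 and 2.43 CPM (-0.17), *Kcnj13* 1.48 and 1.58 CPM (0.09) and *Clic6* 2.37 and 3.15 CPM (0.41). The libraries of the genotypes overlapped in *Kcnj13* and *Clic6*, and *Kl* was not split. *Clic6* was counted in 55 and 67 reads in libraries A and B and in 99 and 59 in C and D. *Kcnj13* had 44 and 33 against 43 and 36 reads. In CPM both were highest in library C, though *Kcnj13* only just (1.70 in C and 1.66 in A). *Ttr* was highest in library C as well. The part of such tissue in the values of the 10 genes was not tested.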

How the data were processed

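Bulb RNA was sequenced as 75 bp paired-end reads on a NextSeq. The authors used Partek to trim the reads, to map them to GRCm38 (named mm10 by the submitters' processing notes) and to compare genotypes. Aligner, annotation, counting rule and normalization: not given in the sources used here. Labels and methods differ on the kit (mRNA, and stranded total RNA). The deposited table lists the authors' mean CPM of each genotype for 15818 genes (sums of 998057 and 998014). Its p-values, adjusted p-values, ratios and fold changes are the authors' own comparison and were not used. A deposited list gives the total read count of each library. The counted reads of each library were estimated here from the smallest steps between low means of its genotype.

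Each mean was written as whole reads of the 2 libraries of its genotype plus an offset of 0.0001 CPM and kept where the chance of another solution was under 0.0001. This leaned to low genes: 31.3% of those under 5 CPM and 9.45% of the others were split, with a chi-square per gene of 1.76 between the libraries of S/S and 2.02 between those of G/G. The main test on split counts was edgeR's quasi-likelihood test (version 4.0.16, counted reads as library sizes, Benjamini-Hochberg over 2218 genes), after a check on simulated data. TMM, DESeq2 1.42.0, limma 3.58.1 on log2(CPM + 1), a minimum of 10 reads and leaving out each library were alternatives. Counting intervals are exact (Poisson for levels, conditional binomial for ratios, with reads taken as mean CPM times counted reads). Lengths and positions are from GENCODE M21, in which 98.6% of the symbols named 1 gene. Analyses ran in R 4.3.3 and Python 3.11.15.

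The 10 genes and all lists were chosen with earlier results of these data known. The p-values rest only on the spread between 2 pools a genotype, which may be partly technical. In edgeR the spread of each gene was drawn towards that of all 2218 split genes. Named are the 10 genes, all measured relatives and, in each related list, the gene of highest level and those of highest and lowest ratio at 5 CPM or above. Any other named gene was chosen after its values were seen. Some single-gene values are not reported here.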

Additional observations from a re-analysis of the deposited data

How the results depend on the processing

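The 2 genes at 1.1-fold or more stayed 2 with log2(CPM + 1) and when centred on the median (-0.01) or trimmed mean of all genes. The difference of 0.38 between the groups was 0.25 with log2(CPM + 1) and 0.42 with summed CPM, but -0.041 with S-phase genes and -0.030 with G2 and mitosis genes in place of the pair (-0.028 and 0.073 with only those under 5 CPM, added after seeing the data). At 5 CPM and above no dividing-cell gene of the pair was left, so that alternative was not run. Leaving out 1 library, chosen as an alternative after seeing the data, gave 0.13 to 0.56 on split genes. Of the S-phase, G2 and mitosis genes 9 were higher and 6 lower at 1.1-fold, 5 and 3 at 1.2-fold, 0 and 0 at 1.5-fold, and 1 and 0 at 5 CPM and above. None of the 4 split genes passed adjusted p under any alternative in edgeR, DESeq2 or limma (0.762 to 0.999), and the unadjusted p was under 0.05 only for *Mki67*, which missed it in DESeq2 and without library A or D. Over all split genes, calls went from 2 to 6 with TMM, 1 with DESeq2 and 0 to 2 when a library was left out, 2 without library A and 0 without B, C or D (edgeR, with 70 to 134 genes at an unadjusted p under 0.05). Without 1 library the log2 ratio ranged from 0.37 to 0.76 for *Mki67*, from -0.0076 (without library D) to 0.47 for *Top2a*, from 0.03 to 0.08 for *Sox4* and from -0.023 (without library A) to 0.11 for *Sox11*. The cause of these shifts was not tested. A lone library was then taken to vary like the other genotype's. No paired analysis was possible because the split libraries carry no replicate number. With 39 to 86 reads a library, depth limits what *Mki67* and *Top2a* can show.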
